A study of Cucumis sativus with 33 samples.

Results

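Petals of female cucumber flowers, taken as whole corollas from the inbred line 6457 of Cucumis sativus, which sets fruit without pollination, were compared on day 3 after labeling, when those on super and on normal ovaries were both green yellow buds. The 6 RNA-seq libraries compared, 3 from super ovaries (S3) and 3 from normal ovaries (N3), were taken by their labels from the 33 libraries of the study. Super ovaries came from plants with ample fertilizer and water that carried a single fruit, which was the flower closest to the shoot tip. Normal ovaries came from plants kept short of both, on which fruit was set from other flowers. Fertilizer, water and fruit load thus changed together and cannot be told apart, nor can any difference in flower position. Days were counted from the day the ovary became visible and was labeled, the flowers had been bagged against pollination, and each library pooled 5 corollas. Opening fell mainly on day 5 in normal and on day 9 in super ovaries, so the day 3 buds stood at different distances from opening. The other groups used here were corollas of days 1, 4 and 5 from normal ovaries (N1, green bud, N4, yellow bud, and N5, open) and of days 1, 4, 5, 7, 8 and 9 from super ovaries (S1, green bud, S4 and S5, green yellow bud, S7 and S8, yellow bud, and S9, open).

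The corolla is the whorl of petals. As it passes from bud to open flower its green tissue loses chlorophyll, yellow carotenoid pigment becomes visible, and cell division gives way to the cell expansion that spreads the petals. The genes of the table carry identifiers that could not be joined to names: 0 of 23248 matched the RefSeq gene table. The tissue label was therefore not checked against marker genes, gene functions are not given, and genes are described as groups and by how they behaved in the other libraries. In a pooled tissue, fewer cells of a type and less RNA per cell cannot be told apart.

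Values were deposited as RPM, a gene's reads relative to the total of its library. The day 3 libraries held 18052550 to 22615866 reads, so that 1 read was worth 0.0442 to 0.0554 RPM. Across genes, replicate libraries of a day 3 group correlated at 0.994 to 0.997 on the log2(RPM + 1) scale and libraries of different groups at 0.934 to 0.952. The median SD of a gene over the 3 libraries was 0.095 in N3 and 0.088 in S3 on that scale. Of 18905 tested genes, 12 had an SD above 1 in N3 and 7 in S3.

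Super and normal buds of day 3 differed in 2299 genes: S3 exceeded N3 in 1323 of them and was below it in 976, which is 7.00% and 5.16% of the genes tested (12.2% together). A gene was called when its adjusted p from limma was under 0.05 and its change at least 2-fold. Without the limit on size, 12086 genes (63.9%) passed, 8259 (43.7%) with S3 above and 3827 (20.2%) with S3 below. Most called differences were moderate: the called genes had a median log2 difference of 1.29 when higher and -1.41 when lower, 167 (0.883%) and 184 (0.973%) genes passed 4-fold, and 28 and 36 passed 8-fold. Genes lower in S3 held 12.6% ± 0.48 of the reads in N3 and 4.26% ± 0.40 in S3 (SD, n = 3), while genes higher in S3 held 2.08% ± 0.067 in N3 and 6.05% ± 0.43 in S3. These shares describe genes chosen by the same libraries and carry no test. Among the 5055 genes that averaged at least 50 RPM over the 6 libraries, 2.87% were higher and 6.88% lower, whereas among the 9536 genes between 5 and 50 RPM 9.36% were higher and 5.18% lower. In 2295 of the 2299 called genes the S3 and N3 libraries did not overlap, which was also true of 72.7% of all genes tested (48.8% with S3 above, 23.9% with S3 below).

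**Figure D1:**
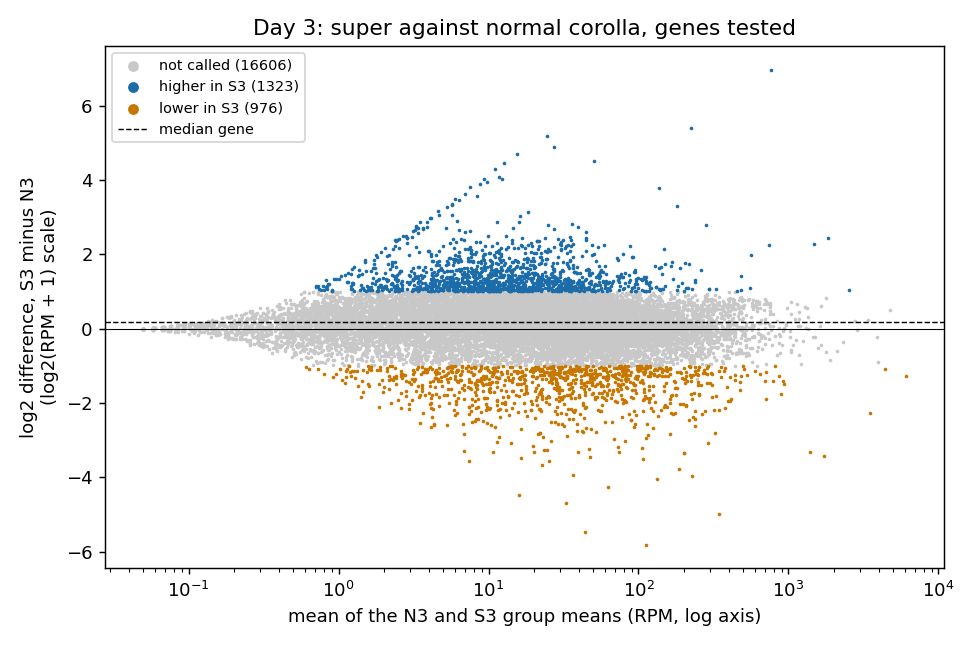
Each point is 1 of the 18905 genes tested, with the mean of the N3 and S3 group means on the horizontal axis (RPM, log axis) and the log2 difference, S3 minus N3, on the vertical axis. The 1323 genes higher in S3 are blue, the 976 lower ones orange, and the dashed line marks the median gene at 0.17. A narrow row of blue points climbs from the lower left, at low mean levels.

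The balance of higher and lower genes changed with the scaling and the pseudocount. In the RPM values the median gene was 0.17 higher in S3 on the log2 scale, and 57.5% of the calls were higher. With libraries set to a common median gene ratio, 863 genes (4.56%) were higher and 1277 (6.75%) lower (11.3% together, 40.3% of them higher), with the median gene at 0.01. The 863 were all among the 1323, the 976 all stayed lower, and no gene was called in opposite directions. By edgeR's quasi-likelihood test on recovered reads 1542 genes (8.16%) were higher and 1706 (9.02%) lower (17.2% together, 47.5% of them higher). With a pseudocount of 5 RPM in place of 1, limma called 606 genes higher and 668 lower, and with 0.1 RPM 2080 and 1249.

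Whether the day 3 differences lay on the path that corollas of both types follow was examined in comparisons that share no library with them, though the fit shared the estimate of the spread. From the green to the yellow bud, N4 was compared with N1 in normal ovaries and S7 with S1 in super ovaries. Of 3543 genes that fell in both courses, 1031 (29.1%) were higher in S3 than in N3 and 35 (0.99%) lower, with a median log2 difference of 0.78. Of 988 genes that rose in both courses, 306 (31%) were lower in S3 and 4 (0.40%) higher, with a median log2 difference of -0.68. Of the 9668 genes called in neither course, 87 (0.90%) were higher and 243 (2.51%) lower. Over all tested genes these shares were 7.00% and 5.16%. After rescaling, 615 of 2440 falling genes (25.2%) were higher in S3 and 508 of 1621 rising genes (31.3%) were lower. Over all tested genes the rescaled shares were 4.56% higher and 6.75% lower. The N4 comparison called 1689 genes higher and 6216 lower (21.4% higher, 47.3% after rescaling) and the S7 comparison 1932 and 4014 (32.5% and 44.4%), or 41.8% and 31.5% of the genes tested. Replicate 3 of S7 stood lower than the other S7 libraries on the line from S1 (0) to the S7 mean (1), at 0.92 against 1.05 and 1.04. Without it, 1049 falling genes were higher and 310 rising genes lower in S3, in place of 1031 and 306.

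Read from the day 3 side, 1096 of the 1323 genes higher in S3 (82.8%) were lower in N4 than in N1, where 32.9% of all tested genes were, and 1095 (82.8%) were lower in S7 than in S1, against 21.2% of all. Of the 976 genes lower in S3, 345 (35.3%) were higher in N4 than in N1, against 8.93% of all, and 502 (51.4%) were higher in S7 than in S1, against 10.2% of all. Across the 18905 genes, the day 3 difference correlated with the change from N1 to N4 at -0.53 and with the change from S1 to S7 at -0.64. These r values describe genes, which are not independent replicates and share libraries, and they were -0.54 and -0.64 after rescaling.

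**Figure D2:**
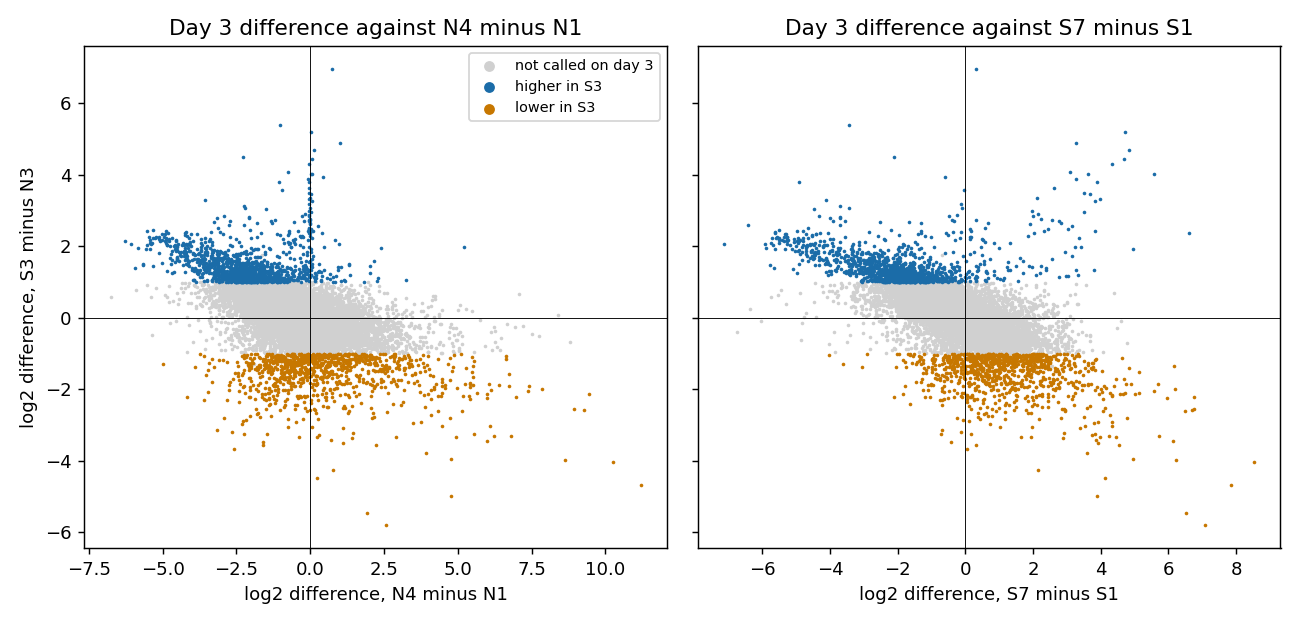
Each point is a gene tested, with its log2 difference between the ends of a course on the horizontal axis (N4 minus N1 at the left, S7 minus S1 at the right) and its day 3 difference, S3 minus N3, on the vertical axis. Most blue points (higher in S3) lie at negative and many orange points (lower in S3) at positive course changes. A column of blue points near 0 at the left appears at positive values at the right.

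The levels of these groups were followed through every stage, as a description. The 1031 genes that fell in both courses and were higher in S3 had medians of 24.5 RPM in N1 and 28.6 in S1. They stood at 6.49 RPM in N3 and 19.3 in S3. In super ovaries they passed through 13.6 RPM in S4 and 11.1 in S5, and reached 4.04 in S7, so the level of N3 was passed between days 5 and 7. The 306 genes that rose in both courses and were lower in S3 had medians of 11.9 RPM in N1 and 9.54 in S1. They stood at 47.2 RPM in N3 and 14.5 in S3, and in super ovaries reached 30.2 in S5 and 72.4 in S7. In both groups the S4 and S5 medians lay between those of S3 and N3. The comparisons that chose the members were between N1, N3, N4, S1, S3 and S7. They set the gap between S3 and N3 and the directions from N1 to N4 and from S1 to S7. The libraries of S4, S5, S8, S9 and N5 entered only through the filter on low values and the shared estimate of the spread.

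Another shape was seen in 202 genes that were lower in S3 than in N3 and also lower in N4 than in N1. They were 20.7% of the 976 genes lower in S3, below the 32.9% of all tested genes that were lower in N4. The median of the 202 stood at 24.1 RPM in N1, 59.8 in N3, 5.37 in N4 and 48.6 in N5. In super ovaries it was 27.3 RPM in S1 and 16.9 in S3, then 16.5 in S4, 25 in S7, 30.4 in S8 and 44.6 in S9. The choice itself sets the high N3 and the low N4 median, and no yellow bud of super ovaries had to meet it. After rescaling, this group held 140 of 1277 genes lower in S3 (11.0%), against 19.5% of all genes tested. The 243 genes that were lower in S3 and called in neither course had a like shape, with medians of 18.6 RPM in N1, 42.1 in N3, 16 in N4 and 44.2 in N5, and of 16.4 in S3, 29.2 in S7 and 45.5 in S9. The 87 genes that were higher in S3 and called in neither course had medians of 1.79 RPM in N3 and 7.64 in S3, with 8.23 in S4 as the highest of any group. N3 and S3 entered the choice of all these genes, and N1, N4, S1 and S7 that of the genes called in neither course, so the medians are descriptions.

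**Figure D3:**
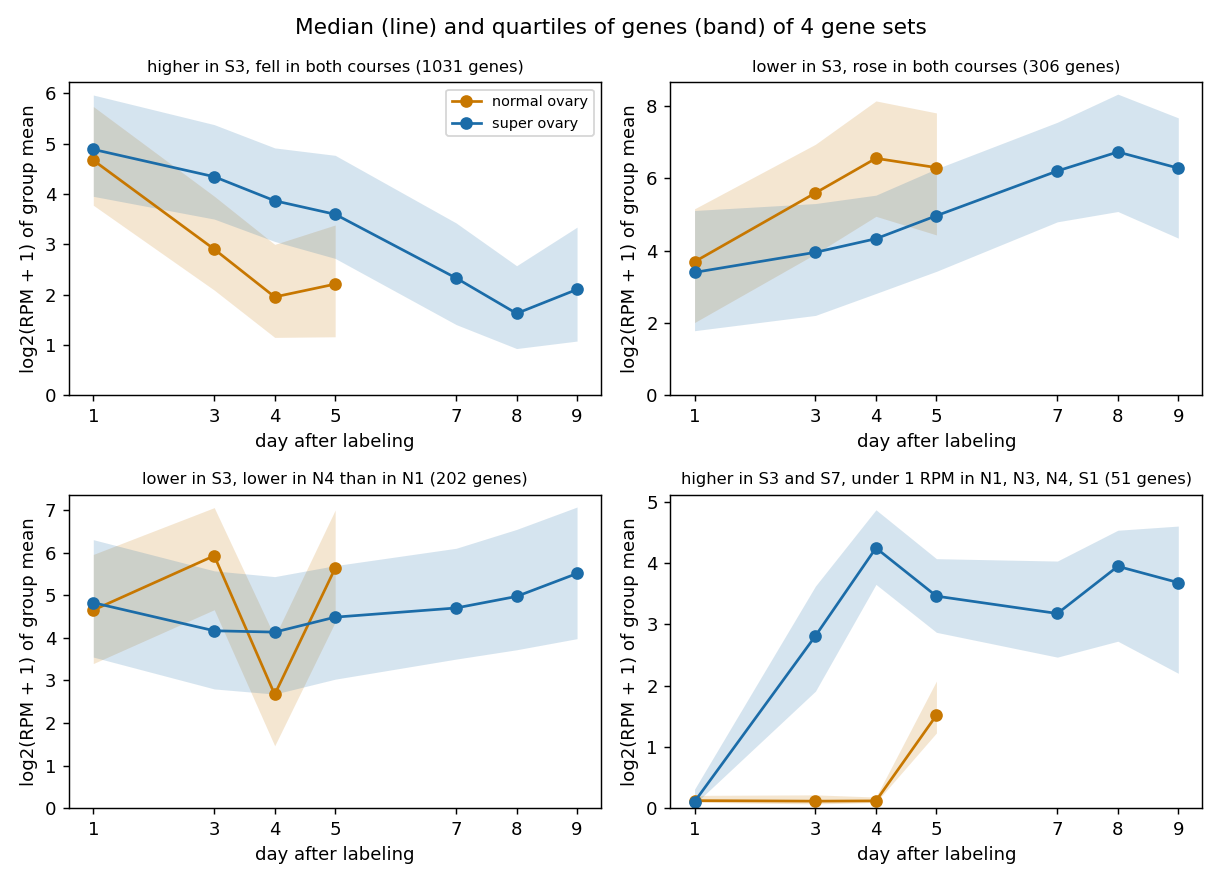
Lines give the median over genes of log2(RPM + 1) of the group means, bands the range between the quartiles of the genes, against day after labeling, for normal (orange) and super ovaries (blue) in 4 gene sets. The upper panels show 1031 falling and 306 rising genes whose super curve runs later than the normal one. The choice of these genes sets the gap between the curves on day 3. The lower panels show 202 genes with a day 3 maximum and a day 4 dip on the normal curve, and 51 genes near 0 until day 4 in normal ovaries and present from day 3 in super ovaries.

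A small group was close to 0 in normal buds and present in super buds from day 3. Of the 1323 genes higher in S3, 66 (4.99%) were also higher in S7 than in S1, below the 10.2% of all genes tested. Among these 66, 62 were called in neither direction in N4 against N1, where 58.2% of all genes were. The other 4 were higher there, against 8.93% of all. Of the 66, 51 had a mean under 1 RPM in N1, N3, N4 and S1, a limit chosen after the values were seen. Summed over the 51 genes, N1 libraries held 7.07 to 8.08 RPM, N3 libraries 7.01 to 9.8 and N4 libraries 5.36 to 10.3. The S1 libraries held 8 to 10.5 RPM. The sum was 264, 708 and 343 RPM in S3 replicates 1, 2 and 3. Of the 51 genes, 37 to 47 had 3 reads or fewer in each N1, N3 and N4 library, and all had more in each S3 library. The gap between these groups follows from how the genes were chosen and is given as a description.

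Of the later super groups only S7 was in a comparison that chose the genes. The sum was 966 to 1707 RPM in the S4 libraries, 736 to 825 in S5, 453 to 896 in S7, 570 to 1192 in S8 and 459 to 1242 in S9. In open normal corollas it was 155 to 188 RPM (N5), below every super library from day 3 on. The sum does not describe each member. A gene of the set averaged 31.4 RPM in N5 against 3.10 in S3, and another was down to 0.15 RPM in S9. The set was uneven between S3 replicates. In 50 of the 51 genes replicate 2 was the highest of the 3, and the median ratio of replicate 2 to replicate 1 was 2.7, against 1.01 over all genes tested. Without S3 replicate 2, 44 of the 51 were still called, and leaving out any other day 3 library kept all 51. The rescaled values and edgeR on recovered reads also called all 51. What the 51 genes encode is not known from the table.

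The genes named here are the 2 with the largest change in each direction, among 937 genes higher and 803 lower whose higher group averaged at least 10 RPM and whose S3 and N3 libraries did not overlap. Gene Csa3G104850 stood at 1206.88, 1665.11 and 1670.71 RPM in the S3 libraries and at 27.45, 48.37 and 0.22 RPM in N3 replicates 1, 2 and 3. The groups did not overlap, but the N3 libraries ranged widely. The log2 scale gave 6.97 (SE 1.14, adjusted p 8.2e-06 by limma), with 5.32 without N3 replicate 3, 7.59 without replicate 1 and 7.99 without replicate 2. By summed reads it was 55.7 times higher in S3, with a 95% exact interval of 53 to 58.5 that covers counting error only.

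Gene Csa3G119620 stood at 378.64, 392.77 and 532.44 RPM in S3 and at 26.85, 21.45 and 0.72 RPM in N3, the low library being replicate 3 again. On the log2 scale it differed by 5.39 (SE 0.93, adjusted p 1.7e-05 by limma), with 4.11 without N3 replicate 3, 6.11 without replicate 1 and 5.96 without replicate 2. Both genes were already higher on day 1, where limma gave S1 against N1 log2 differences of 6.44 (SE 1.14, adjusted p 0.00039) and 5.95 (SE 0.93, adjusted p 8.7e-05). There too a single N1 library, replicate 3, stood apart, at 32.54 RPM for Csa3G104850 against 0.26 and 0.10 RPM. The S1 libraries were uneven as well. Replicate 2 stood at 86.96 RPM against 524.11 and 662.11 for Csa3G104850, and at 126.81 against 484.86 and 692.24 for Csa3G119620. From S3 on, Csa3G104850 went through 1953 ± 388 RPM in S4 and 430 ± 210 in S7 to 0.60 ± 0.31 in S9 (SD, n = 3), and Csa3G119620 through 259 ± 55.7 and 35 ± 17 to 0.20 ± 0.10. In open normal flowers the pair stood at 112 ± 61.8 and 16.1 ± 8.88 RPM, so that N5 was above S9.

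Genes Csa5G524730 and Csa5G524720, which occupy neighbouring rows of the table, were the other extreme. Csa5G524730 stood at 231.43, 202.25 and 225.62 RPM in the N3 libraries and at 2.23, 3.41 and 3.27 in S3. Its log2 difference was -5.81 (SE 0.51, adjusted p 5.7e-10 by limma), and by summed reads it was 75.4 times higher in N3 (95% exact interval 64.9 to 88.1, counting error only). Csa5G524720 stood at 88.09, 82.73 and 90.35 RPM in N3 and at 1.21, 0.96 and 0.84 in S3, which limma put at -5.46 on the log2 scale (SE 0.48, adjusted p 4.3e-10). Here the replicates were tight and the groups far apart.

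Both genes had a single high stage in normal ovaries and a later one in super ovaries. Csa5G524730 was at 2.59 ± 0.92 RPM in N1, 19.7 ± 1.56 in N4 and 10.1 ± 0.58 in N5 (SD, n = 3). In super ovaries it was at 1.80 ± 0.32 RPM in S1 and 4.85 ± 1.30 in S4, reached 377 ± 42.3 in S7, and was down to 23.2 ± 1.33 in S8. The S5 libraries were split, with 117.31 and 110.41 RPM in replicates 1 and 2 and 7.27 in replicate 3. Csa5G524720 followed the same order, at 161 ± 14.1 RPM in S7, with 43.25, 32.57 and 2.44 RPM in the S5 libraries. Whether these neighbours share reads through similar sequence was not tested.

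**Figure D4:**
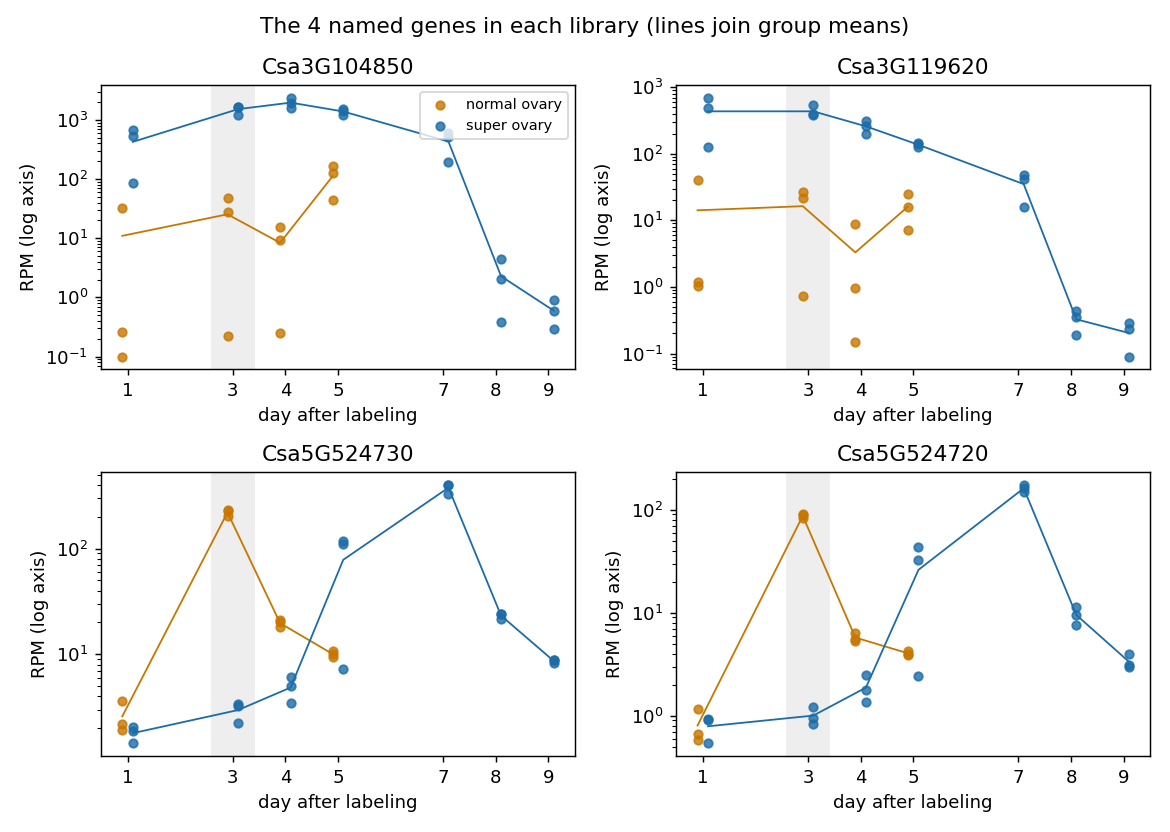
RPM of the 4 named genes in each of the 33 libraries (log axis) against day after labeling, for normal (orange) and super ovaries (blue), with lines through the group means and day 3 shaded. The upper genes were higher in every super library of days 3 to 5 than in any normal library of day 3, with N3 replicate 3 far under the other N3 libraries. The lower genes peaked on day 3 in normal and on day 7 in super ovaries.

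How the day 3 difference arose was followed from day 1. In N3 against N1, 1213 genes rose (6.42%) and 2153 fell (11.4%), 17.8% of those tested. In S3 against S1, 399 rose (2.11%) and 474 fell (2.51%), 4.62% in all. The difference between these changes, tested as an interaction, was called for 2158 genes (11.4%), of which 1107 (5.86%) were more positive and 1051 (5.56%) more negative in super ovaries. The share of rises was 36% in N3 against N1 and 53.1% after rescaling, and that of positive interactions 51.3% and 34.2%. Csa5G524730 changed by 5.97 from N1 to N3 (SE 0.51, adjusted p 1.4e-10 by limma), while its change of 0.50 from S1 to S3 missed the threshold (SE 0.51, adjusted p 0.49). Its interaction was -5.47 (SE 0.73, adjusted p 2.1e-06), and that of Csa5G524720 was -5.46 (SE 0.67, adjusted p 7.8e-07). Both genes were chosen for their day 3 difference, which enters the interaction, and the N3 libraries also enter the change from N1. These values are therefore not independent of the choice and describe the genes. For Csa3G104850 and Csa3G119620 the interactions were 0.53 (SE 1.61, adjusted p 0.81) and -0.56 (SE 1.31, adjusted p 0.75); errors of this size do not show that the difference stayed the same.

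Few genes differed between the ovary types on day 1, with 184 higher (0.973%) and 51 lower (0.270%) in S1 than in N1, 1.24% together. These comparisons share no library with day 3. Of the 184 genes higher on day 1, 62 (33.7%) were also higher on day 3 and 9 (4.89%) were lower, where 7.00% and 5.16% of all genes tested were. Of the 51 lower on day 1, 19 (37.3%) were lower on day 3 and 3 (5.88%) higher. The shares in the opposite direction are thus close to those over all genes. Without N1 replicate 3, 90 genes rather than 51 were lower on day 1. The 62 made up 4.69% of the genes higher on day 3 and the 19 made up 1.95% of those lower. The 62 genes had medians of 3.37 RPM in N1 and 14.2 in S1, 1.37 in N3 and 8.45 in S3, and 2.56 in S7. The 19 genes had medians of 15.7 RPM in N1 and 6.08 in S1, 75.7 in N3 and 10.2 in S3, and 84.9 in S7. The choice of the 62 and the 19 sets their gaps on days 1 and 3, so these medians are descriptions.

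To place whole libraries, each was projected on the line that leads from the N1 mean (0) to the N4 mean (1) over all genes tested, which no day 3 library helped to set. The N3 libraries stood at 0.41 ± 0.023 and the S3 libraries at 0.13 ± 0.0066 (SD, n = 3), and the groups did not overlap. On the line from S1 (0) to S7 (1), N3 stood at 0.64 ± 0.027 and S3 at 0.26 ± 0.016. Later super buds of the same stage name lay further on, S4 at 0.22 ± 0.017 and S5 at 0.30 ± 0.033 on the normal line, and at 0.43 ± 0.0068 and 0.56 ± 0.044 on the super line. The highest S5 library, at 0.33 and 0.60, was below the lowest N3 library, at 0.39 and 0.62. The ovary types did not start level, however. On the super line, where S1 sets 0, N1 already stood at 0.099 ± 0.033. On the normal line S1 stood at -0.027 ± 0.0055, and S7 reached 0.65 ± 0.056. A position thus mixes progress from day 1 with differences between ovary types, and the order of S5 and N3 does not separate them. The lowest S5 library was replicate 3, at 0.27 and 0.51, the library in which Csa5G524730 was low. Exact two-sided permutation tests of N3 against S3, S4 and S5 each gave p = 0.1, which is the smallest value that 3 libraries against 3 allow. After rescaling the same order was found, with N3 at 0.41 and S3 at 0.13 on the normal line, and on the super line the highest S5 library stood at 0.606 and the lowest N3 library at 0.608.

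**Figure D5:**
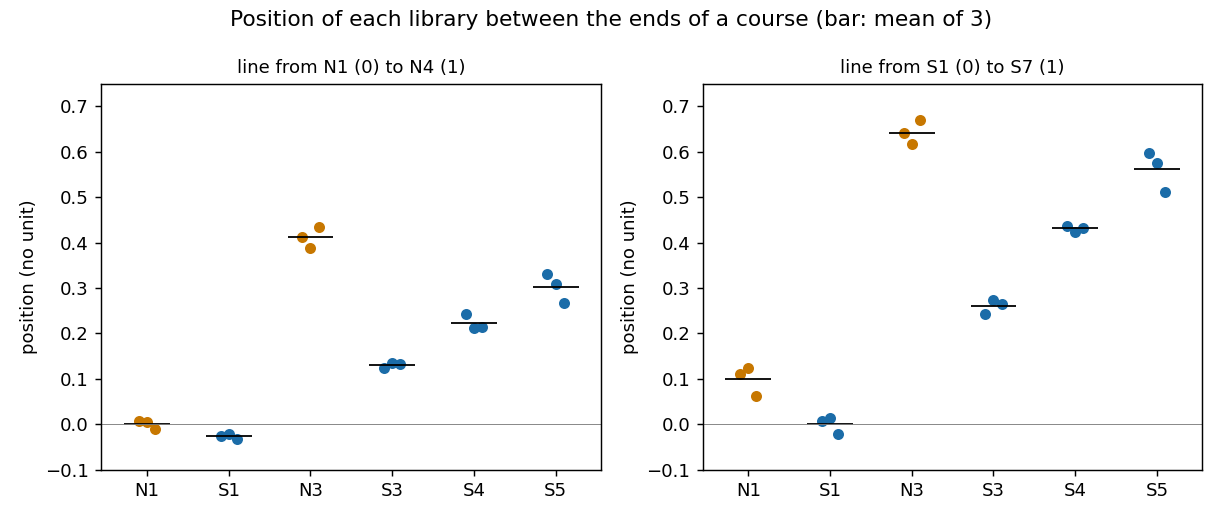
Position of each library (points, bar for the mean of 3) on the line from N1 to N4 at the left and from S1 to S7 at the right, orange for normal and blue for super ovaries. The N3 libraries sit at 0.39 to 0.43 at the left, above the S3 libraries at 0.12 to 0.13 and above all S4 and S5 libraries.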

How the data were processed

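RNA-seq of corollas pooled by 5 gave 33 libraries in 11 groups, named by their labels. The authors deposited 1 table of RPM values, and TopHat and HTSeq are the tools in the submitters' processing notes. Neither versions nor a genome build, annotation or strandedness could be taken from the labels. The submitters call the replicates biological, but separate plants are not stated, so p-values measure the spread between pools. No replicate pair was identical (chi-square per degree of freedom 5.20 to 14.1 within day 3 groups).

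Log2(RPM + 1) values were tested by limma 3.58.1 (R 4.3.3), the 33 libraries together in a fit of 11 group means, on 18905 genes with a mean of at least 1 RPM in any group. P-values are two-sided, with Benjamini-Hochberg adjustment within a comparison. This scale understates changes of low genes. Values were whole multiples of a step (100% within 0.25 of a whole read). On the assumption, not settled by the data, that 1 read had been added to each gene (no value was 0), reads went to edgeR 4.0.16, without 3 libraries (S1 replicate 2 and S4 replicate 2 among them, and N5 replicate 2) whose lowest values failed a separate test. A limit of 3 reads then corresponds to 0.177 to 0.222 RPM. Scripts were tested on simulated data.

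Named genes were the 2 largest called changes each way, with a mean of 10 RPM or more and no overlap. Functional lists could not be formed. Genes, lists and members were chosen with earlier results of these data known. Same-numbered N3 and S3 libraries did not deviate together (correlations 0.051, -0.020 and 0.020). Those of S1 and S7 correlated at 0.21, 0.14 and 0.27, and differently numbered ones at -0.24 to 0.14. Same-numbered S1 and S3 libraries stood at 0.14, -0.15 and -0.27, so libraries of one number did not deviate together in all groups.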

Additional observations from a re-analysis of the deposited data

Results flagged for a closer look

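The difference between ovary types was not the same on day 3 as on day 1. By the interaction test in limma, 1107 genes (5.86%) had a more positive difference, super minus normal, on day 3 and 1051 (5.56%) a more negative one. The balance changed with the scaling, with 686 more positive and 1321 more negative after rescaling. By edgeR, without S1 replicate 2, the counts were 1033 and 1466. Among the named genes the interaction was called for Csa5G524730, at -5.47 on the log2 scale, and for Csa5G524720, at -5.46. Both were chosen for their day 3 difference, which enters the interaction. Groups of 3 libraries were not searched for outlying samples.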

How the results depend on the processing

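The 4 named genes kept their direction and stayed past the threshold under every setting run, including edgeR, both pseudocounts and each library left out. Counts of called genes moved by over 1.5 times mainly with the pseudocount, and the cause was not tested. With a pseudocount of 5 RPM, S3 against N3 gave 1274 genes, N3 against N1 1919, S3 against S1 397, S1 against N1 87 and the interaction 1186. With one of 0.1 RPM, S3 against S1 gave 1354 and S1 against N1 394. By edgeR, which here and below lacked S1 replicate 2, these were 1386 and 370. In edgeR, S3 against N3 gave 3513 genes when all with 10 reads or more in total entered. The edgeR fits of the comparisons other than S3 against N3, the limit of 10 reads, the edgeR block and the settings for the 3 gene sets were chosen after seeing the data. A 4-fold limit left 351 genes by construction. Genes that fell in both courses and were higher in S3 numbered 471 with a pseudocount of 5 and 615 after rescaling. Those that rose and were lower numbered 508 after rescaling and 690 by edgeR. Genes higher in S3 and in S7 numbered 28 and 128 with pseudocounts of 5 and 0.1, and 132 by edgeR.

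Leaving out each library in turn gave 2169 to 2457 genes for S3 against N3, 1947 to 2476 for the interaction and 56 to 72 for the genes higher in S3 and S7. With the replicate number as a block, S3 against N3 gave 2299 genes, S7 against S1 5943, and no count moved by 1.5 times. On the super line S3 minus N3 was -0.38, or -0.33 and -0.41 with pseudocounts of 0.1 and 5 and -0.24 on a line to S9. Genes near 3 reads, a deposited value of 0.177 to 0.222 RPM, rest on few counts in each library.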
